A study of Mus musculus with 6 samples.

Results

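A set of 10 genes of the neuronal cytoskeleton families, 3 beta-tubulins (Tubb2b, Tubb3, Tubb6), 4 stathmins (Stmn1, Stmn2, Stmn3, Stmn4) and 3 neurofilament subunits (Nefl, Nefm, Nefh), were followed in differentiating mouse muscle cells. They are 10 of the 20659 genes named on the array, and every probe whose RefSeq accession belongs to 1 of the 10 symbols was taken, which gave 14 probes on 23 spots. All 10 passed the filter for signal above background, although Nefh passed only through its si-SYISL arrays.

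Total RNA came from C2C12 cells, an established line of mouse myoblasts, which form myotubes once serum is withdrawn. In 1 group SYISL, a long non-coding RNA, was targeted with a small interfering RNA (si-SYISL, 3 arrays), and the other group received a control oligo (si-NC, 3 arrays). Both groups were grown in medium with fetal bovine serum, transfected, and then differentiated for 2 days under 2% horse serum. Each RNA was labelled with Cy3 and hybridised to a single-colour Agilent array. The comparison asks how gene expression across the genome differs when SYISL is targeted during differentiation, and since no probe was assigned to SYISL, its own level was not analysed here.

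In both groups replicate 3 differed from replicate 1 by less than the noise between the spots that repeat a probe on an array. Over 399 replicated probes the chi-square per probe was 0.214 and 0.252 for these array pairs, while the other 13 pairs ranged from 24.7 to 163.5. Independent spots would give a value near 1, so the arrays of each matching pair shared even their spot noise. Whether each pair is 1 array scanned again was not tested. The matching arrays were therefore averaged as 1 sample, so that n = 2 per group (replicates 1 and 3 together, and replicate 2). Nothing in the labels tells whether the replicates were grown separately, and SEs and p-values cover only the spread between these samples, which may be technical. Spots well above background made up 87.9% to 90.6% on the si-SYISL arrays and 78.2% to 84.6% on the si-NC arrays, and 0 spots were saturated. Precision is limited by the number of arrays.

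Beta-tubulins pair with alpha-tubulins to form the building block of microtubules, and vertebrates carry several beta isotypes that differ mostly in their acidic tails. Stathmins bind free tubulin and promote microtubule disassembly, and their binding is weakened when kinases phosphorylate them. Neurofilaments are the intermediate filaments of axons, built from a light, a medium and a heavy subunit. Tubb3, Stmn2 and the neurofilament genes are widely used as markers of neurons, whereas Tubb6 and Stmn1 are also active outside the nervous system, Stmn1 chiefly in dividing cells.

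Promoter sequences from RefSeq (build GRCm38.p6) were matched by symbol for 2 of the 10 genes, Tubb3 and Stmn3. These are the members whose promoters the sequences used here hold, and they were not picked for their expression. The 250 bases before the transcription start are given, for Tubb3 at chr8:123411303-123411552 on the plus strand and for Stmn3 at chr2:181314501-181314750 on the minus strand. Capitals mark matches, on either strand, to the E-box CANNTG, the GC box GGGCGG and the TATA box TATAA.
Tubb3: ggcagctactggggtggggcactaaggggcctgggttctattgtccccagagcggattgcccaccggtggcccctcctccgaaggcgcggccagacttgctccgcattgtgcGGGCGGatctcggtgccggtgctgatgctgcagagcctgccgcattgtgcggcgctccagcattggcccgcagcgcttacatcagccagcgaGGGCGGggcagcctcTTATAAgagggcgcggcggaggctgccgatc
Stmn3: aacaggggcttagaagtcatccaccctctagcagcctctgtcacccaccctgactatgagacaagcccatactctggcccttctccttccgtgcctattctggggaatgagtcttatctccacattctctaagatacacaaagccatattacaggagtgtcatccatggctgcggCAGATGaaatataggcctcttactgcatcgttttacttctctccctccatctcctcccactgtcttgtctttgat
The Tubb3 window held 2 GC boxes, found in 32.7% of the 32851 promoter windows of the same length. It held TATAA on both strands in the same overlapping letters, a motif found in 22.8% of windows, and no E-box. The Stmn3 window held 1 E-box, a motif found in 66.2% of windows, and no GC box or TATAA. The CCAAT box (CCAAT, 33.8% of windows) occurred 1 time in the Tubb3 window, not in capitals here, and 0 times in that of Stmn3. The letters TTCAGCACC and GGACAGCGC, from the ends of the RE1 element that the neuronal repressor REST binds, were in neither window (0.301% and 0.304% of all windows). Bases G and C made up 68.0% of the Tubb3 window and 48.8% of the Stmn3 window, with a median of 52.4% over all windows. These matches describe the letters only.

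Expression is given as scaled intensity, the deposited processed signal multiplied so that the 75th percentile of every array is 2500 units. Levels of different probes cannot be compared. Log2 differences are si-SYISL minus si-NC, relative to the median of all 28563 features (genes or unnamed probes), ± SE from limma with 2 samples in each group. That median was 0.16 before the subtraction and 0.03 after quantile normalisation. The 10 genes were selected on their family membership and with the processed signals of these si-SYISL and si-NC arrays in view, so their differences are described and not tested. For scale, the middle 90% of all features lay between -0.66 and 0.73, and the median SE was 0.14.

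Of the 10 genes, the 6 genes Tubb3, Tubb2b, Stmn4, Stmn1, Nefm and Nefl had both si-SYISL samples below both si-NC samples. Tubb6 was higher in both, and the groups overlapped for Stmn2, Stmn3 and Nefh. Among all features, 15.8% were lower and 46.3% higher in this sense, and 62.1% did not overlap in 1 or the other direction, against 7 of the 10 genes. Since the choice of genes used this contrast, nothing is read from the count. With quantile normalisation the shares of all features were 24.1% lower and 30.3% higher. The median log2 difference of the 10 genes was -0.75, with 7 below and 3 above the median of all features. In bulk RNA, fewer cells of a type and less RNA per cell cannot be told apart.

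**Figure D1:**
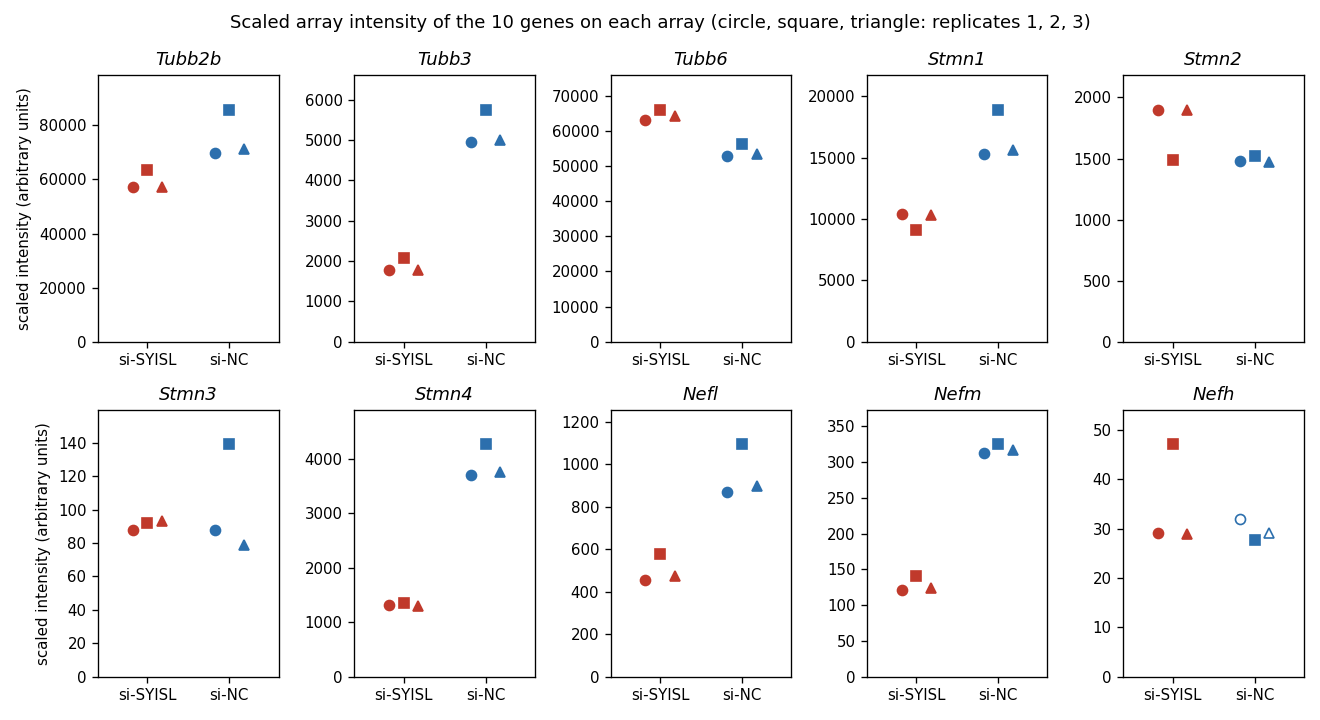
Scaled intensity (arbitrary units, linear axis from 0) of each of the 10 genes on the 3 si-SYISL arrays (red) and the 3 si-NC arrays (blue); circles, squares and triangles are replicates 1, 2 and 3, and open symbols are spots not well above background. The groups separate downwards in si-SYISL for Tubb2b, Tubb3, Stmn1, Stmn4, Nefl and Nefm, and the circle and triangle of each group nearly coincide.

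Among the beta-tubulins, Tubb3, the class III isotype that marks neurons, had scaled intensities of 1774, 2070 and 1769 on si-SYISL replicates 1, 2 and 3, against 4949, 5753 and 4994 on si-NC replicates 1, 2 and 3. The lowest si-NC array was thus above the highest si-SYISL array. This is a log2 difference of -1.64 ± 0.15, or 3.13-fold lower in si-SYISL, with 0.382% of all features lower than it. Tubb2b, an isotype abundant in the developing nervous system, had 57226, 63510 and 57088 units on the si-SYISL arrays, against 69886, 85843 and 71215 units on the si-NC arrays. The groups did not overlap, and the log2 difference was -0.53 ± 0.15. The gap between the si-NC samples was 0.28 (log2), with replicate 2 the higher. A second Tubb2b probe, read at a lower intensity, gave -0.62, with 13092 to 13747 units in si-SYISL and 17660 to 19013 units in si-NC.

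Tubb6, a broadly active isotype found in muscle as well as other tissues, had 63197, 66023 and 64338 units on the si-SYISL arrays, against 52714, 56326 and 53336 units on the si-NC arrays. All si-SYISL arrays were higher before the shift of all features was subtracted. Relative to all features the difference was 0.08 ± 0.11, within its SE. The beta-tubulins thus differed by -1.64, -0.53 and 0.08.

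Stathmin 4 (Stmn4), a neuronal member of the family, had 1305, 1343 and 1300 units on the si-SYISL arrays, against 3697, 4259 and 3746 units on the si-NC arrays. The groups lay far apart, and the spread within si-SYISL was 0.04 (log2) between its samples. On the log2 scale Stmn4 differed by -1.75 ± 0.13, which is 3.37-fold lower in si-SYISL and the lowest of the 10 genes. The second Stmn4 probe gave -1.71, with 1140 to 1167 units in si-SYISL and 2939 to 3843 units in si-NC.

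Stmn1, the founding stathmin and a regulator of the mitotic spindle, had 10446, 9125 and 10374 units on the si-SYISL arrays, against 15349, 18928 and 15646 units on the si-NC arrays. Replicate 2 was the lowest si-SYISL array and the highest si-NC array. Stmn1 differed by -0.98 ± 0.16 on the log2 scale (1.97-fold lower), and the second Stmn1 probe gave -1.01. Between arrays of the same replicate number, the difference was -0.65 for replicate 1 and -1.25 for replicate 2. Whether the numbers pair the samples is not known.

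Stmn2, the growth-cone protein also called SCG10, had 1899, 1489 and 1901 units on the si-SYISL arrays, against 1479, 1522 and 1469 units on the si-NC arrays. Replicates 1 and 3 of si-SYISL were above all si-NC arrays and replicate 2 lay among them. The log2 difference was 0.00 ± 0.16, with 0.23 without si-SYISL replicate 2 and -0.20 without si-SYISL replicates 1 and 3. Stmn3, a further neuronal stathmin, had 87.8, 91.8 and 93.2 units on the si-SYISL arrays, against 87.6, 139 and 79.1 units on the si-NC arrays. A single array, si-NC replicate 2, stood above the others. The log2 difference was -0.40 ± 0.27 with it, -0.01 without si-NC replicate 2 and -0.78 without si-NC replicates 1 and 3.

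Nefm, the medium neurofilament subunit, is measured by a probe that is spotted 10 times on each array. Its scaled intensity was 120.7, 141.2 and 123.2 on the si-SYISL arrays, against 313.3, 324.6 and 317.3 on the si-NC arrays. The highest si-SYISL spot read 152 units and the lowest si-NC spot 272 units. The SD between spots was 4.28 to 7.03 units on the si-SYISL arrays (10 spots each) and 16.8 to 24.3 units on the si-NC arrays (8 to 10 spots, after 1 and 2 outlier spots were left out on replicates 1 and 3). The log2 difference was -1.45 ± 0.13, which is 2.73-fold lower in si-SYISL.

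**Figure D2:**
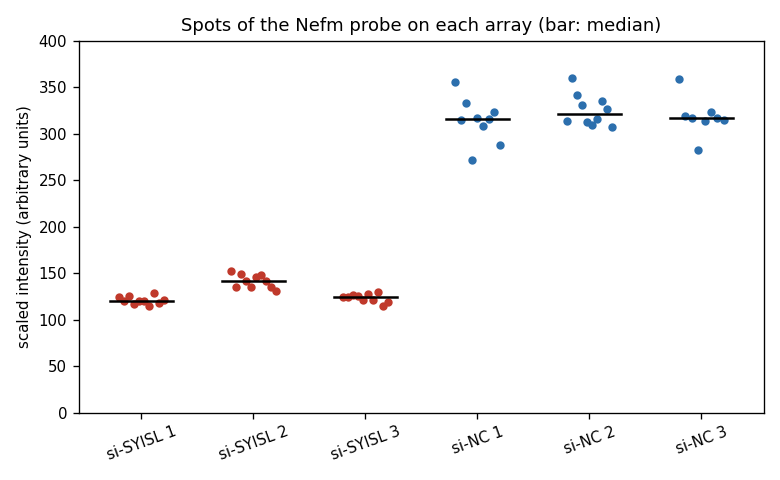
Scaled intensity (arbitrary units) of each spot of the Nefm probe on the 3 si-SYISL arrays (red) and the 3 si-NC arrays (blue), with a bar at the median. The medians are 120 to 141 units in si-SYISL and 316 to 321 units in si-NC, and no spots of the groups overlap.

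Nefl, the light subunit on which neurofilaments assemble, had 456, 579 and 473 units on the si-SYISL arrays, against 869, 1093 and 897 units on the si-NC arrays. The groups did not overlap, and replicate 2 was the highest array of each. For Nefl this gave a log2 difference of -1.09 ± 0.18 (2.12-fold lower). Nefl and Nefm are adjacent genes in the RefSeq annotation. The protein-coding genes on either side of the pair, chosen after their values were seen, are Dock5, at 0.03 ± 0.12, and Adam7, at 0.57 ± 0.24.

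Nefh, the heavy subunit, had 29.2, 47.1 and 29.0 units on the si-SYISL arrays, against 32.0, 27.7 and 29.1 units on the si-NC arrays. It was well above background on 3 of 3 si-SYISL arrays and on 1 of 3 si-NC arrays, and si-SYISL replicate 2 alone stood above the rest. The 32.0 units on si-NC replicate 1 did not count as well above background, while the 29.2 and 29.0 units in si-SYISL did. Detection limits thus differed between the arrays, and no group difference in Nefh is read from these counts. Nefh differed by 0.18 ± 0.26 on the log2 scale, and -0.12 without si-SYISL replicate 2. The second Nefh probe gave 0.48, with 27.3 to 31.6 units in si-SYISL and 16.2 to 20.8 units in si-NC, also well above background on 1 of 3 si-NC arrays. Its 20.6 and 16.2 units on si-NC replicates 1 and 3 lay under the dimmest probe well above background there (24 and 25.17 units). The direction for Nefh turned with quantile normalisation (-0.02) and in the series matrix (-0.01).

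**Figure D3:**
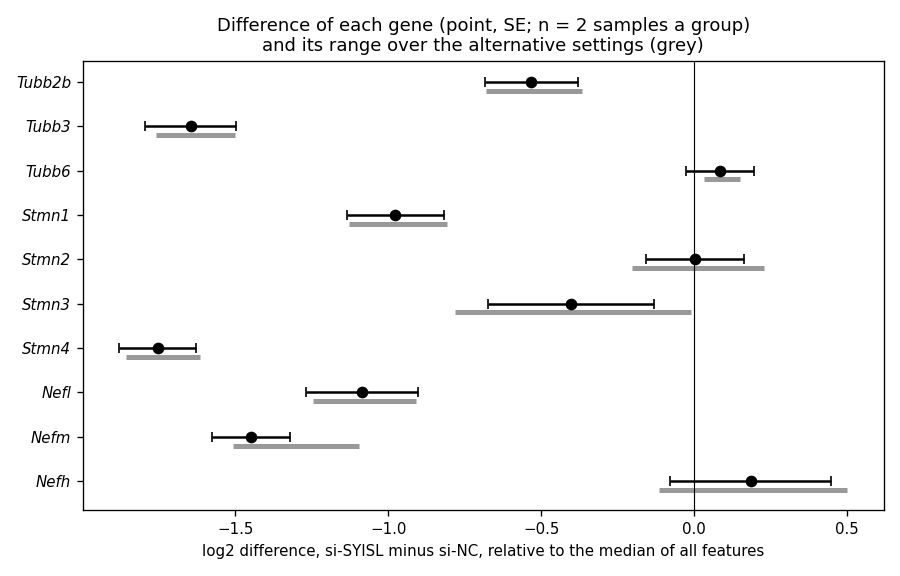
Log2 difference of each gene, si-SYISL minus si-NC and relative to the median of all features (point with SE, n = 2 samples a group), with its range over the alternative settings in grey. Stmn4, Tubb3, Nefm, Nefl, Stmn1 and Tubb2b stay below 0 over their whole range, as does Stmn3, which comes as near as -0.01. Tubb6 stays above 0 (0.03 to 0.15), while the ranges of Stmn2 and Nefh cross 0.

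The arrays came from 2 scans, replicates 1 and 2 of both groups in 1 and replicate 3 of both groups in the other. Within the scan of replicates 1 and 2 the log2 difference was -1.64 for Tubb3, -1.75 for Stmn4, -1.45 for Nefm, -1.09 for Nefl, -0.97 for Stmn1 and -0.52 for Tubb2b. Within the scan of replicate 3, where each group has 1 array, it was -1.59 for Tubb3, -1.62 for Stmn4, -1.46 for Nefm, -1.02 for Nefl, -0.69 for Stmn1 and -0.41 for Tubb2b. Stmn3 was at -0.46 in the first and 0.14 in the second, and Stmn2 at 0.00 and 0.28. Replicate 3 is not independent of replicate 1.

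**Figure D4:**
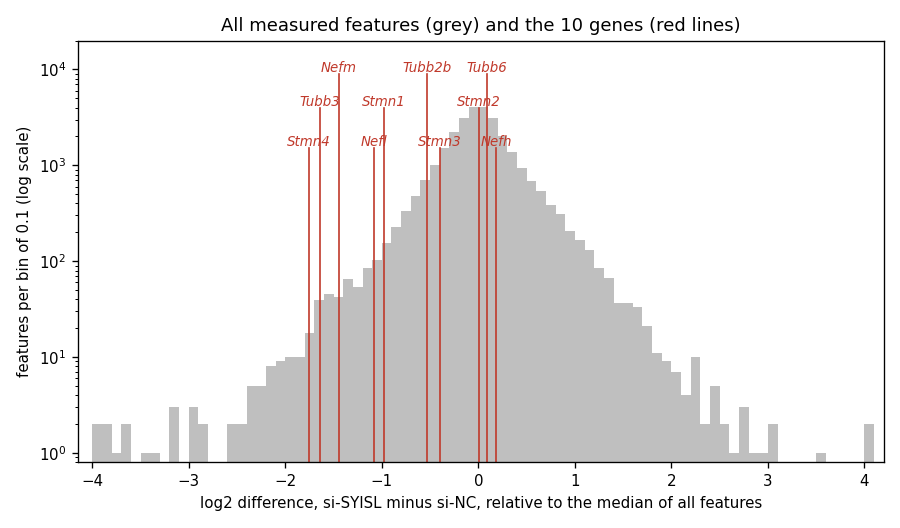
Histogram of the log2 difference of all 28563 features (grey, bins of 0.1, counts on a log axis, end bins holding all values beyond 4 in size), with the 10 genes as red lines at their values. Stmn4, Tubb3, Nefm, Nefl and Stmn1 lie in the lower tail, below the value that 5% of features fall under (-0.66), and the lines of Stmn2, Tubb6 and Nefh lie near the centre.

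Related genes were then counted by list, with limma over all features, where 0 of 28563 features passed an adjusted p of 0.05 (0%; smallest adjusted p 0.0843). At an unadjusted p of 0.05, 16.8% of features were higher and 5.85% lower (4794 and 1671). With quantile normalisation these counts were 2711 and 2543, and with the array median as the scale 2515 and 2845. Of each list named here, 0 genes passed over all features in the reported fit. The p-values and the counts of higher and lower genes test the difference before the shift of 0.16 was subtracted, whereas the log2 differences printed are after it. Counts with the array median as the scale, where that shift was 0.03, are given wherever they differ.

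Of 14 other tubulin genes, 13 were measured, with a median log2 difference of -0.07, and at an unadjusted p of 0.05 0 were higher and 1 was lower. The lower gene was Tube1, the epsilon-tubulin of centrioles (-0.66 ± 0.16, adjusted p = 0.186). Tubb4b, a widespread beta isotype, was at 0.32 ± 0.19 (adjusted p = 0.24) and Tubg2, a gamma-tubulin, at 0.08 ± 0.12 (adjusted p = 0.301). Tubb2a, the neighbour of Tubb2b in the genome with a closely similar coding sequence, was at -0.11 ± 0.11, and whether their probes cross-hybridise was not tested. Tubb2a, Ina and Prph are named after their values were seen.

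Of 21 genes of microtubule-associated proteins, 17 were measured (median -0.17), and 5 were higher and 2 lower at an unadjusted p of 0.05. The lower genes were the neuronal microtubule-binding proteins Map1b (-1.02 ± 0.14, adjusted p = 0.116) and Map2 (-0.82 ± 0.11, adjusted p = 0.121). Map1b had 14608 and 13234 units in the si-SYISL samples, against 23336 and 27245 units in the si-NC samples. Camsap3, which binds microtubule minus ends, had the largest difference upward of the list (1.07 ± 0.28, adjusted p = 0.141). With the array median as the scale Camsap3 was the 1 higher gene and 6 were lower, Map1b and Map2 among them. Map7, 1 of the 5 higher genes of the reported fit, passed the filter only through the si-SYISL arrays. With the filter on all 6 arrays, which drops it, 15 genes were measured (median -0.15), with 4 higher and 4 lower. Genes of tubulin folding and modification lay between -0.27 and 0.19 (15 of 16 measured, median -0.06), with 2 higher and 0 lower at an unadjusted p of 0.05. With the array median as the scale 0 were higher and 0 lower. The sign of the list median turned with quantile normalisation (0.06), in the series matrix (0.07) and without si-SYISL replicate 2 (0.11), and it was -0.18 without si-SYISL replicates 1 and 3. The higher genes before subtraction were the deacetylase Hdac6 (0.19 ± 0.12, adjusted p = 0.197) and the acetyltransferase Atat1 (0.16 ± 0.12, adjusted p = 0.21). Svbp, a partner of the tubulin carboxypeptidases, followed at 0.09 ± 0.12 (adjusted p = 0.279).

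Of 10 kinases that phosphorylate stathmins or act on the same pathways, all were measured (median -0.08), 1 higher and 2 lower at an unadjusted p of 0.05. Camk4, a calcium-dependent kinase, was at 1.12 ± 0.14 (adjusted p = 0.0889). The lower genes were the mitotic kinase Cdk1 (-0.88 ± 0.15, adjusted p = 0.135) and Uhmk1, the stathmin kinase KIS (-0.61 ± 0.11, adjusted p = 0.148). Of 11 other intermediate filament and linker genes (median 0.01), 0 were higher and 1 was lower, the nuclear lamin Lmnb1 (-1.20 ± 0.11, adjusted p = 0.0843). With the array median as the scale 2 were lower, Lmnb1 and Dst. The linker Plec was at 0.22 ± 0.14 (adjusted p = 0.221), and Dst, another linker, was at -1.07 ± 0.41 (adjusted p = 0.268). The neuronal filament genes Ina and Prph were at 0.27 ± 0.22 and 0.04 ± 0.15. The medians of 2 of these lists turned in sign, to 0.05 for other tubulins without si-SYISL replicate 2 and to 0.05 for kinases with quantile normalisation, while that of the filament list was 0.11 without si-SYISL replicate 2.

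REST silences neuronal genes in cells that are not neurons, and several neuronal cytoskeleton genes are known among its targets. Of REST and 5 cofactors, 0 were higher and 3 lower at an unadjusted p of 0.05 (median -0.62). Rest had 1151 and 706 units in the si-SYISL samples, against 2002 and 1985 units in the si-NC samples, a log2 difference of -1.31 ± 0.26 (adjusted p = 0.142). Rcor3 was at -2.15 ± 0.31 (adjusted p = 0.114) and the demethylase Kdm1a at -0.68 ± 0.18 (adjusted p = 0.202). By non-overlap of the groups, 4 genes of the list were lower and 2 higher, where 15.8% of all features were lower and 46.3% higher. With the array median as the scale 4 were lower at an unadjusted p of 0.05, the fourth being Rcor1, another corepressor.

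**Figure D5:**
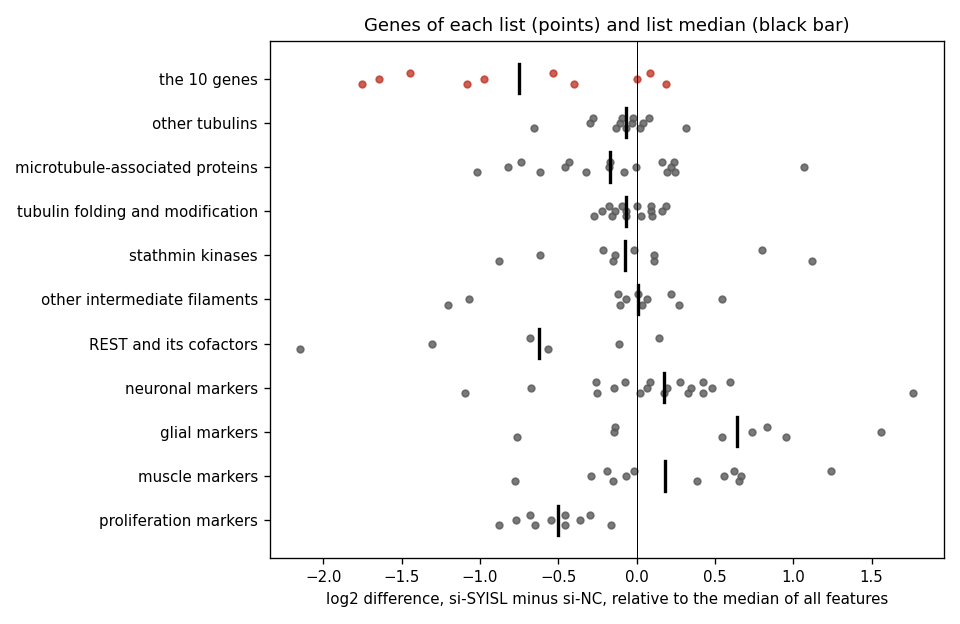
Log2 difference of each gene, si-SYISL minus si-NC and relative to the median of all features (points), with the list median (bar), for the 10 genes (red) and the other lists (grey). The medians are -0.75 for the 10 genes, -0.62 for REST and its cofactors, -0.50 for proliferation markers and between -0.17 and 0.01 for other tubulins, associated proteins, folding genes, kinases and filaments.

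The neuronal label was set against markers. All 19 other neuronal markers were well above background on every si-SYISL array and 14 on every si-NC array, with Gad1 and Syt1 on 0 of the si-NC arrays. These counts face unlike detection limits. The dimmest probe well above background read 11.95, 19.26 and 11.98 units on si-SYISL replicates 1, 2 and 3. On si-NC replicates 1, 2 and 3 it read 24, 15.32 and 25.17 units. Of all spots, 78.2% to 84.6% were well above background on si-NC arrays, against 87.9% to 90.6% on si-SYISL arrays. The 5 markers not detected on every si-NC array passed the filter only through the si-SYISL arrays. The list was therefore also counted over the 14 genes that pass on all 6 arrays. There the median was 0.07, and 1 was higher (Eno2) and 1 lower (Gap43) at an unadjusted p of 0.05. Over all 19 the median was 0.17 with 3 higher and 1 lower, or 1 higher (Gad1) and 2 lower with the array median as the scale. Of the 3 higher, 2, Gad1 and Gad2, are among those 5. The sum of the scaled intensities of the list was 56617 and 52823 units in the si-SYISL samples against 43554 and 45139 units in the si-NC samples. Most of it came from Ncam1 (25646 and 26240 units in si-SYISL, 22442 and 21353 in si-NC) and Eno2 (14068 and 11776 units, against 7828 and 9398). The sum thus describes these probes rather than the list. Such sums, here and below, are before the subtraction and weigh bright probes most. Gad1, an enzyme of GABA synthesis, had 22.8 and 25.5 units in the si-SYISL samples. As it was well above background on 0 si-NC arrays, no size or p-value of its difference is given. Eno2, a neuronal enolase, was at 0.42 ± 0.16 (adjusted p = 0.165) and Gap43, a growth-cone protein, at -1.10 ± 0.16 (adjusted p = 0.121). Rbfox3, the nuclear marker of mature neurons and named after its values were seen, had 97.9 and 114 units in the si-SYISL samples, against 66.5 and 91.0 units in the si-NC samples. Because these RNAs came from a myoblast line, the name neuronal here describes the gene families and not the cells.

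Of 10 glial markers, 8 were measured, 2 were on 0 arrays of either group, and 2 were higher and 1 lower at an unadjusted p of 0.05. The higher genes were the myelin genes Mog, at 1.56 ± 0.12 (adjusted p = 0.0843), and Mbp, at 0.95 ± 0.17 (adjusted p = 0.113). The summed intensity of the glial list was 23225 and 26510 units in si-SYISL against 12079 and 8275 units in si-NC. Mog alone made up 17085 and 19315 of these units in si-SYISL, against 5444 and 5565 in si-NC, and the water channel gene Aqp4 most of the rest, so the sum describes these probes rather than the list. The list median of 0.64 was 0.36 with the filter on all 6 arrays and 0.01 without si-NC replicate 2.

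All 12 muscle markers were well above background on every array, with 6 higher and 1 lower at an unadjusted p of 0.05, or 5 and 1 with the array median as the scale. The list median was 0.18, with 6 genes above and 6 below that of all features, and it was 0.38 without si-NC replicates 1 and 3 and 0.34 without si-SYISL replicate 2. The summed intensity was 159190 and 163250 units in si-SYISL against 114740 and 101750 units in si-NC. The troponins Tnnt3 (1.24 ± 0.16, adjusted p = 0.0939) and Tnnt1 (0.66 ± 0.11, adjusted p = 0.102) and the myosin Myh3 (0.62 ± 0.12, adjusted p = 0.115) had the smallest p. The lower gene was the myogenic factor Myod1 (-0.78 ± 0.13, adjusted p = 0.131), named after its values were seen. All 10 proliferation markers lay below the median of all features (median -0.50), with 0 higher and 1 lower at an unadjusted p of 0.05. Their summed intensity was 62920 and 56181 units in si-SYISL against 65301 and 79784 units in si-NC. Cdk1 was the lower gene, with Bub1 at -0.68 ± 0.19 (adjusted p = 0.221) and Plk1 at -0.77 ± 0.23 (adjusted p = 0.222). With the array median as the scale 4 were lower, Cdk1, Plk1, Bub1 and Pcna. The list median was -0.81 without si-SYISL replicates 1 and 3 and -0.32 without si-SYISL replicate 2. The part of these marker shifts in the values of the 10 genes was not tested.

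For each gene, the named gene with the most similar centred log2 profile over the 4 samples was taken, by root mean square difference. Pirb, an immune receptor gene, was nearest to both Stmn4 (0.0421) and Tubb3 (0.0609). Hells, a chromatin remodeller, was nearest to Tubb2b (0.0059), Polq, a DNA repair polymerase, to Stmn1 (0.034), Loxl2, a lysyl oxidase, to Nefl (0.0103) and Clca3b to Nefm (0.0527). Fgfr1op2 was nearest to Tubb6 (0.00345), Galt to Stmn2 (0.00637), Csn1s1 to Stmn3 (0.037) and Hrnr to Nefh (0.00849). With 4 samples and many genes, such closeness describes the profiles and no more.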

How the data were processed

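Expression was measured on 6 single-colour Agilent arrays. Per the file headers, the deposited intensity (gProcessedSignal) was background-subtracted and detrended within each array by Feature Extraction 11.0.1.1 (10.5.1.1 per the submitters' processing notes), with no scaling across arrays. The deposited scanner files also hold flags of 0 or 1 (unit other, per the file headers) and median pixel intensity. The deposited series matrix holds log2 values with nearly equal quantiles, used only as an alternative.

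Control and outlier spots were left out, each array's 75th percentile was subtracted from the log2 intensity, and repeated spots were averaged per probe. Of 39429 probes, 27234 were named through RefSeq accessions (GRCm38.p6), and 12195 stayed unnamed. A probe was kept when well above background on all 3 arrays of a group, and the brightest kept probe stood for a gene. Replicates 1 and 3 of each group were averaged. Groups were compared in R 4.3.3 with limma 3.58.1 (lmFit and eBayes, two-sided, Benjamini-Hochberg over 28563 features); Python 3.11.15, pandas 2.3.3, numpy 2.4.6 and matplotlib 3.10.9 were used for motif counts and figures. Residual degrees of freedom were 2, with 2.37 from the prior. The fit was tested on simulated data.

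The named genes are the 10 members, up to 3 genes per list by smallest p, and the nearest profile per member. Any other (Rcor1, Pcna, Map7, Gad2, Ncam1, Aqp4 and those marked in the text) was chosen with its values seen. A gene that this rule names is not reported here. The members, the 10 other lists and the averaging of replicates 1 and 3 were chosen with earlier results of these data known. For a gene below background on a whole group, a bound was computed with each array of that group set to no less than its dimmest probe well above background. Alternatives were other scaling, normexp background (offset 50, on the median pixel intensity), the series matrix, other filters, other probe rules, 6 arrays as 6 samples, blocks on replicate number or scan, a variance trend with robust estimation, and each sample left out.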

Additional observations from a re-analysis of the deposited data

How the results depend on the processing

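The 6 genes lower in both si-SYISL samples were below every si-NC sample in all 15 alternatives that gave a value for them (6 of 6 shared), and their log2 differences kept their sign. Ranges were -1.86 to -1.61 for Stmn4, -1.76 to -1.50 for Tubb3, -1.51 to -1.10 for Nefm, -1.25 to -0.91 for Nefl, -1.13 to -0.81 for Stmn1 and -0.68 to -0.37 for Tubb2b. Those of Stmn3 (-0.78 to -0.01), Stmn2 (-0.20 to 0.23) and Nefh (-0.12 to 0.50) rested on single samples. Genes above every si-NC sample numbered 2 with the mean of probes and 2 to 3 without 1 sample. The median of the 10 genes was -0.95 with the filter on all 6 arrays, which drops Nefh, and -0.95 to -0.59 without 1 sample. The count of called features (0) was 1 with the array median as scale, 187 with normexp background, 9764 with 6 arrays as 6 samples, 83 with slide and scan as a block, 904 with a variance trend, and 0 to 1376 without 1 sample. Of the genes on the other lists, counting a gene once per list, 4, 49, 2 and 15 passed with normexp background, 6 arrays, slide and scan, and a variance trend, and 0 to 10 without 1 sample. Treating duplicates as samples lowers the spread; the cause of the other changes was not tested. With the replicate block, 0 features and 0 list genes were called and 5889 features had an unadjusted p under 0.05, against 6465. The deviations of same-numbered samples correlated at -0.0312 over features. With 1 deviation per group, this cannot tell whether the numbers pair the samples. With every probe on its own 0 features were called. Signal near background limits Nefh.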
